A study of Homo sapiens with 4 samples.

Results

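Metallothioneins are small, cysteine-rich proteins that bind zinc and copper and can take up cadmium, and SLC30A1 (also called ZNT1) is the transporter that carries zinc out of the cell across the plasma membrane. Both are classical targets of MTF1, a transcription factor that senses free zinc and binds short promoter motifs called metal response elements, so their transcripts serve as readouts of a cell's zinc load. In brain, astrocytes and tumours derived from glia are known to make metallothioneins of the MT1 and MT2 classes. The genes described here are MT1E, MT1F, MT1G, MT1H, MT1M, MT1X, MT2A and SLC30A1, chosen by name: every row of the array table annotated with exactly 1 of these symbols was kept, which gave 15 of 49293 probe sets and 8 of 18132 genes. A probe set is a group of short probes that together report 1 transcript or several like it.

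The samples were U87MG cells, an established human glioma line, that carried either the empty plasmid PCDNA3.1 (+) in the control group or PC-490, a plasmid made to overexpress the microRNA miR-490. Total RNA was taken 48 h after transfection, and 100 ng per sample was hybridised to PrimeView arrays, with 2 arrays per group. Both groups were transfected, no untransfected cells were among the samples, and the labels give no share of cells that took up plasmid. Nothing in the labels says that replicates came from separate cultures, so p-values reflect the spread of these arrays alone, and that spread may be technical. The 4 array medians lay between 5.15 and 5.17 on the log2 scale of the deposited values. Mesenchymal genes typical of this line were bright on all arrays, from 11.87 for TNC to 13.92 for VIM over 5 genes. Of 6 astrocyte markers 3 were above the median of all probe sets, 5.16: SLC1A3 averaged 6.72, GFAP 5.71 and SLC1A2 5.598, while AQP4 averaged 2.72. The 5 leukocyte markers (2.43 to 4.24) and 6 epithelial markers (2.52 to 4.58) were all below that median. Of 4 endothelial markers KDR (6.96) and VWF (5.29) were above it, and of 4 neuronal markers SNAP25 (8.58) and MAP2 (6.03). Each marker is given by its brightest set. The astrocyte, endothelial and neuronal markers above the median each had other sets below it, down to 2.43 for GFAP and 2.23 for VWF.

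The vector was built to supply miR-490, whose precursor gives a pair of mature strands. They are shown because they are what differs by design between the groups, with the seed (bases 2 to 8, the stretch that pairs with target transcripts) in capitals, from RefSeq on GRCh38.p14 (chr7:136903242-136903263 and chr7:136903205-136903224, + strand). The arrays give no value for either strand here.
hsa-miR-490-3p: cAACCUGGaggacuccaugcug
hsa-miR-490-5p: cCAUGGAUcuccaggugggu

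The 7 metallothionein genes lie on chromosome 16 in the order MT2A, MT1E, MT1M, MT1F, MT1G, MT1H and MT1X. The protein-coding genes MT1A and MT1B and several metallothionein pseudogenes lie among them, while SLC30A1 is on chromosome 1. Promoter windows from 250 bases before to 50 bases after the annotated start were given for 4 of the 8 genes, MT1H, MT1X, MT2A and SLC30A1. They are printed because the metal response element is the feature that links the chelators to the exporter. The core was searched as TGCACNC and TGCGCNC on both strands, and capitals mark each match. No match overlaps another in these windows, and no other motif was searched. All windows read 5′ to 3′ on the gene's strand, from RefSeq on GRCh38.p14: MT2A at chr16:56608334-56608633 (+), MT1X at chr16:56682220-56682519 (+), MT1H at chr16:56669564-56669863 (+) and SLC30A1 at chr1:211579112-211579411 (-).
MT2A: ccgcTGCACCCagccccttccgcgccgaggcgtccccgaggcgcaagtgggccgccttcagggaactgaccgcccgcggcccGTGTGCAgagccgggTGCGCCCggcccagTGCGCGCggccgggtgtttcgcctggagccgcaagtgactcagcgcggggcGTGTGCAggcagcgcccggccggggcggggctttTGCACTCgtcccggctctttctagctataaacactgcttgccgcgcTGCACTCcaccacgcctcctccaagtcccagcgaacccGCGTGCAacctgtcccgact
MT1X: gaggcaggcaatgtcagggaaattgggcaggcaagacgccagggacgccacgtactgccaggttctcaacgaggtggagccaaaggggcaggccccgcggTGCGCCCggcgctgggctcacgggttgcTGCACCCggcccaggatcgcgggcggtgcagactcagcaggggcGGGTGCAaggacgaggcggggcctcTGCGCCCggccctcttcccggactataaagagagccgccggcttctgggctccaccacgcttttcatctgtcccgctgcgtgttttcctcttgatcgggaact
MT1H: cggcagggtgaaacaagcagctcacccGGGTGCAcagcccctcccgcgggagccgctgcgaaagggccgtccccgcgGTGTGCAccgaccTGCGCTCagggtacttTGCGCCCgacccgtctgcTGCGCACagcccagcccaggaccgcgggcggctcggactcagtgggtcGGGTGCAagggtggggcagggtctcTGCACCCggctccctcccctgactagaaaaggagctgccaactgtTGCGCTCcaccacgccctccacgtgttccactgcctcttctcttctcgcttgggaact
SLC30A1: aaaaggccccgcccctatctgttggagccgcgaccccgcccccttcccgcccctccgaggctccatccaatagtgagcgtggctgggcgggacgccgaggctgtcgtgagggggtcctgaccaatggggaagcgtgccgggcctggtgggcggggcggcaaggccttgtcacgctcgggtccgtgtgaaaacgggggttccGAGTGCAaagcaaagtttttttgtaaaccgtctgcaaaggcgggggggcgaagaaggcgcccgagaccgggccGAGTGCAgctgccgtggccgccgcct

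The MT2A and MT1H windows held 8 cores each, the MT1X window 4 and the SLC30A1 window 2. Over 35116 windows of the same length, 29.6% held at least 1 core, 8.60% at least 2, 0.601% at least 4 and 0.0199% at least 8. The cores of the 3 metallothionein windows lay at similar distances from the start. Positions below are those of a match's first base as read along the gene strand, also for cores on the opposite strand. A core on the opposite strand began 78 bases before the start in MT1X and MT1H and 88 bases before it in MT2A, and a core on the gene strand began 53 bases before it in MT1X and MT1H and 54 in MT2A. In SLC30A1 both cores were on the opposite strand, 49 bases before the start and at base 25 after it. A match is a description of letters and not a binding site.

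**Figure D1:**
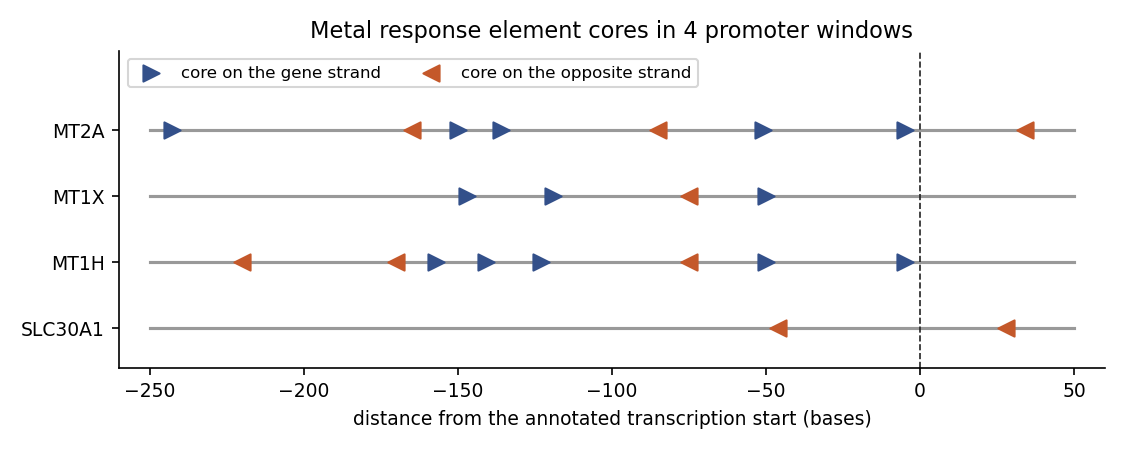
Position of each metal response element core in the 4 promoter windows. The x axis is the distance of the core's middle from the annotated start in bases, each row is 1 gene, and the arrowhead and colour give the strand. MT2A and MT1H have 8 arrowheads each, MT1X 4 and SLC30A1 2.

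The question asked of these genes was whether their level differed when miR-490 was overexpressed. No member passed the test: with limma and Benjamini-Hochberg adjustment over all 49293 probe sets, 0 of the 15 member probe sets had an adjusted p under 0.05, and 0.00% of all probe sets did. At an unadjusted p under 0.05 there was 1 member set, a dim set of MT1G, or 1 of 15 where 5.15% of all probe sets were at that level and 2.48% were lower. Means were higher with miR-490 in 6 sets, lower in 8 and equal in 1. The median log2 fold change was -0.005 over the members and 0.00 over all probe sets. In a culture, fewer cells that express a gene and less RNA per cell cannot be told apart. An exact permutation of the 4 arrays cannot give a single probe set a two-sided p below 0.333.

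A p above the threshold does not show that levels were alike, so the intervals matter more. The 95% interval of the fold change lay within 1.5-fold in either direction for all 15 member sets, and for 46584 of all 49293. The widest member interval belonged to the brightest MT1G set, 0.796 to 1.36 times the control level, and the narrowest to MT1E, 0.902 to 1.14 times. Fold changes of RMA values can be compressed at both ends of the scale, so for very dim or very bright sets these limits hold for the array values and less surely for the RNA.

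**Figure D2:**
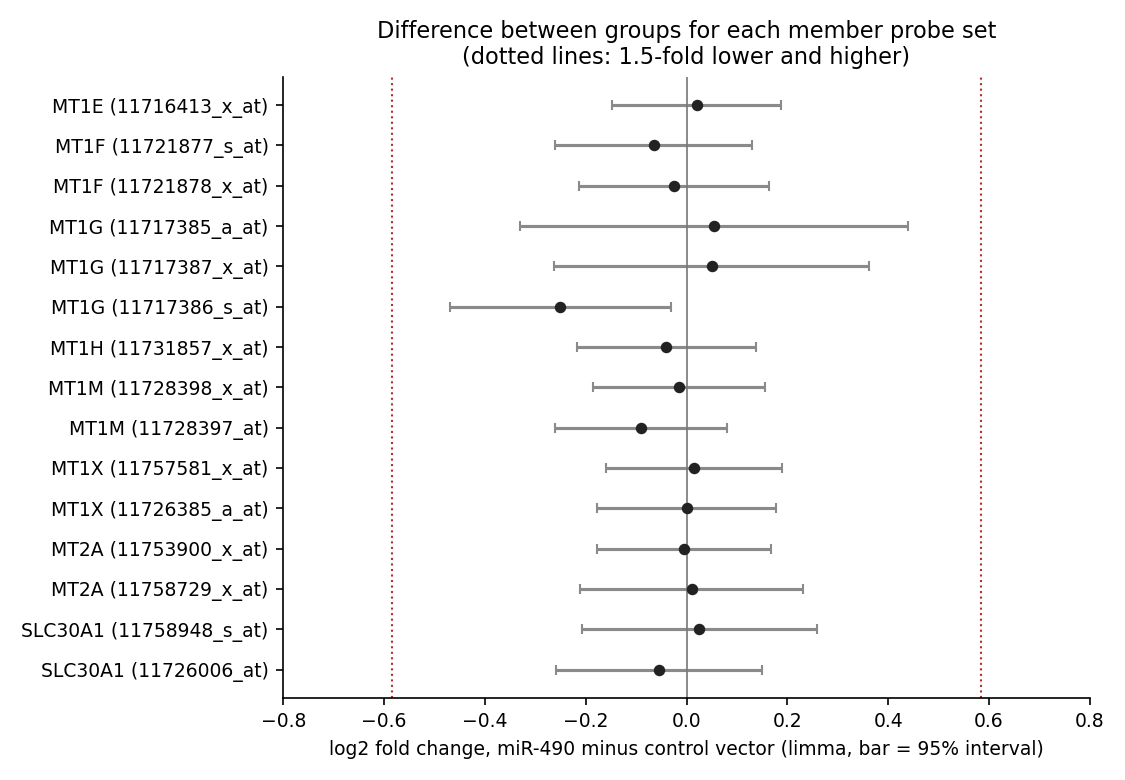
Log2 fold change of each member probe set, miR-490 minus control vector, with its 95% interval from limma (2 arrays per group). The x axis is log2 and the dotted lines mark 1.5-fold in either direction. All 15 bars lie between the dotted lines, and the bar of 1 MT1G set, at -0.25, does not reach 0.

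MT2A, the main metallothionein of most human tissues and one that responds to zinc and to glucocorticoids, had a pair of probe sets that stood far apart in level. The bright set (11753900_x_at) was at 14.17 and 14.12 in the control arrays and at 14.15 and 14.13 in the miR-490 arrays. The miR-490 values lay between the control values, and the log2 fold change was -0.005 (SE 0.0658; limma adjusted p = 0.996). These values are close to 14.24, the highest on any array, and whether this set was saturated was not tested.

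The second MT2A set (11758729_x_at) sat 7.40 log2 units lower, at 6.82 and 6.65 against 6.76 and 6.73. Again both miR-490 arrays fell between the controls, with a log2 fold change of 0.01 (SE 0.0847; 95% interval -0.212 to 0.232). Because a set's brightness depends on its probes, the gap between the MT2A sets cannot be read as a difference in RNA. What each set's probes match was not examined, and levels are not ranked between genes here. What both sets share is a control replicate 1 above control replicate 2, by 0.05 and 0.17, the opposite of the other 13 member sets.

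MT1X, another zinc-responsive chelator and the last of the cluster, was bright in both of its sets. The 11757581_x_at set read 11.92 and 11.95 in controls and 11.92 and 11.98 with miR-490. The 11726385_a_at set read 11.28 and 11.31 in controls and 11.26 and 11.33 with miR-490, so both group means were 11.295 and the log2 fold change was 0.00 (SE 0.0681; 95% interval -0.178 to 0.178). In both sets the groups overlapped, and the miR-490 pair was spread more widely than the control pair.

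MT1E, a close paralog of MT2A in the cluster, had a single probe set, of the _x_at kind. It was at 10.45 and 10.48 in the control arrays and at 10.48 and 10.49 in the miR-490 arrays. The groups met at 10.48, and the log2 fold change of 0.02 (SE 0.0642) was smaller than the gap of 0.03 between the controls. MT1E was the member with the steadiest readings, the 4 arrays spanning 10.45 to 10.49.

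MT1F, a metallothionein that also binds zinc and cadmium, had lower means with miR-490 in both sets. The 11721877_s_at set was at 11.33 and 11.45 in controls and at 11.32 and 11.33 with miR-490, a log2 fold change of -0.065 (SE 0.0745; limma adjusted p = 0.962). That difference comes with 1 control array, replicate 2, standing 0.12 above the other, while control replicate 1 equalled a miR-490 array. The 11721878_x_at set, at 9.56 and 9.64 against 9.54 and 9.61, had a log2 fold change of -0.025, and its groups overlapped.

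MT1M, which lies between MT1E and the pseudogene MT1JP, was the only gene besides MT1G with a set whose groups did not overlap. The 11728397_at set, of the kind least prone to cross-hybridise, was at 9.32 and 9.37 in controls and at 9.25 and 9.26 with miR-490. Both miR-490 arrays lay below both controls, with a log2 fold change of -0.09 (SE 0.0655; 95% interval -0.261 to 0.081; limma adjusted p = 0.924). The second set (11728398_x_at) read 9.73 and 9.77 against 9.75 and 9.72, a log2 fold change of -0.015 with overlapping groups. A further set, annotated to MT1JP, MT1M and MT1P3 together and so left out of the members, read 8.74 and 8.92 against 8.81 and 8.81.

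MT1G, a metallothionein often described as strongly inducible by metals, had 3 sets that did not move together. The 11717385_a_at set was at 7.21 and 7.60 in controls and at 7.40 and 7.52 with miR-490, and the 11717387_x_at set at 6.08 and 6.29 against 6.35 and 6.12. In both the groups overlapped and the means were slightly higher with miR-490, by 0.055 and 0.05. The dim 11717386_s_at set was at 4.40 and 4.51 in controls and at 4.14 and 4.27 with miR-490.

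That dim set gave the lowest log2 fold change of the members, -0.25 (SE 0.0842; 95% interval -0.47 to -0.03), or 0.841 of the control level, with both miR-490 arrays below both controls. Its unadjusted p was 0.0334 and its adjusted p 0.90 (limma), so it did not pass. Its mean level of 4.33 was below the median of all probe sets, the other sets of MT1G had the opposite sign, and with an intensity trend in the variance model the unadjusted p was 0.0644 (limma). The 3 MT1G sets spanned 3.10 log2 units in mean level.

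MT1H, a neighbour of MT1G in the cluster, had a single dim set, at 2.95 and 3.02 in the control arrays and 2.96 and 2.93 in the miR-490 arrays. This is below 3.18, the lower quartile of all probe-set means, and detection calls were not used here, so whether MT1H RNA was present cannot be said. The groups overlapped, with a log2 fold change of -0.04 (SE 0.0681). Its promoter window holds as many cores as that of MT2A, shown above.

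SLC30A1, the zinc exporter, was measured by a bright set and a dimmer one. The 11758948_s_at set was at 9.64 and 9.82 in controls and at 9.79 and 9.72 with miR-490, and the 11726006_at set at 6.69 and 6.76 against 6.73 and 6.61. Their log2 fold changes were 0.025 (SE 0.0892; 95% interval -0.208 to 0.258) and -0.055 (SE 0.0779; 95% interval -0.259 to 0.149). The signs were opposite, the groups overlapped in both sets, and each difference was smaller than the gap within either pair.

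**Figure D3:**
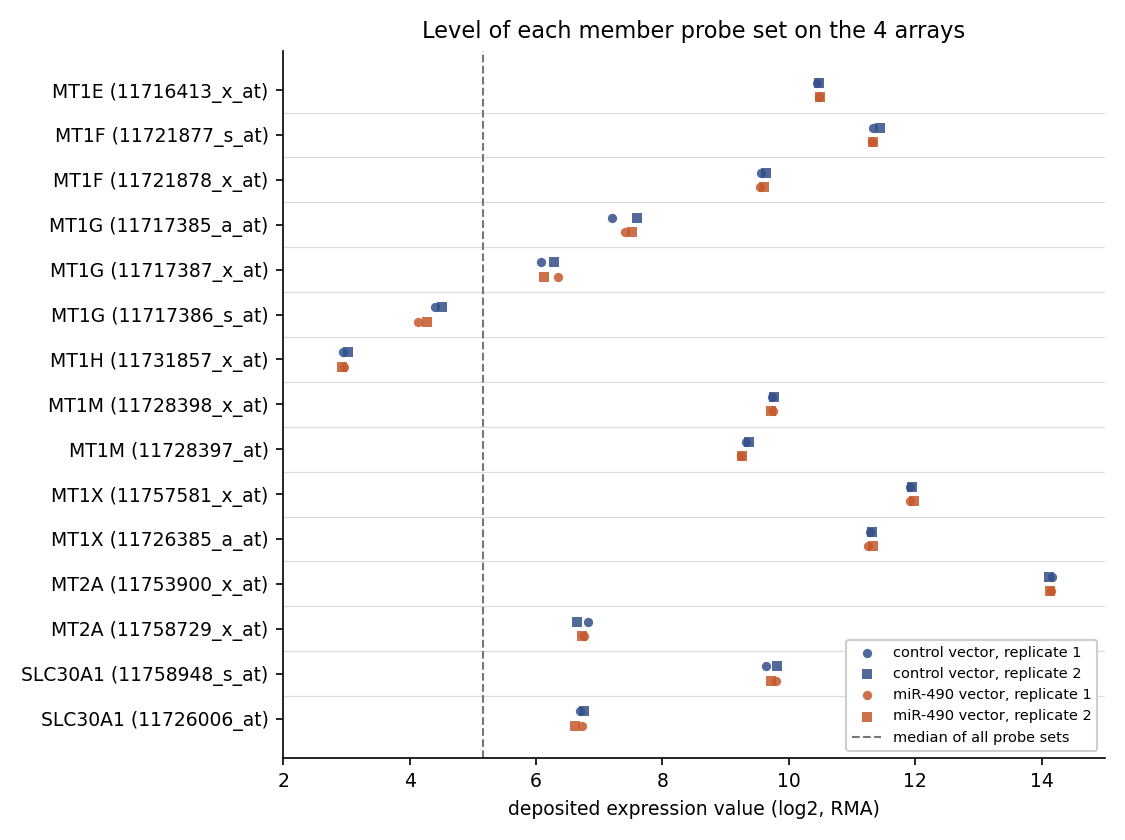
Deposited log2 value of every member probe set on the 4 arrays, with control arrays in blue and miR-490 arrays in orange, circles for replicate 1 and squares for replicate 2. The x axis is log2, and the dashed line is the median of all probe-set means, 5.16. For nearly every set the 4 symbols crowd together, while sets of 1 gene, such as the MT2A pair at 14.1 and 6.74, can lie far apart.

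Across the members, arrays of the same group differed by more than the group means did, although a mean of 2 arrays also varies less than 1 array. The median absolute difference was 0.07 between the 2 control arrays, 0.06 between the 2 miR-490 arrays and 0.025 between the group means. Over all probe sets the same medians were 0.10, 0.09 and 0.07. The group difference exceeded both within-group gaps in 2 of 15 member sets, MT1G 11717386_s_at and MT1M 11728397_at, against 21.7% of all probe sets. In the same 2 sets the groups did not overlap, both lower with miR-490, where 31.2% of all probe sets did not overlap and 15.6% were lower. A count of 2 among 15 related sets is too small to set the members apart from all probe sets in either respect.

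Control replicate 2 read higher than control replicate 1 in 13 of 15 member sets, all but the MT2A pair, where 51.8% of all probe sets and 57.5% of genes did so. Averaged over the 13 metallothionein sets after centring each set, the arrays stood at -0.023 and 0.049 in controls and -0.018 and -0.008 with miR-490. Control replicate 2 was thus the highest array, and the other 3 lay between -0.023 and -0.008. Without control replicate 1 the median log2 fold change of the metallothionein sets was -0.055, and without control replicate 2 it was 0.005. Metallothionein sets can share probes or targets, so the 13 are not independent readings.

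**Figure D4:**
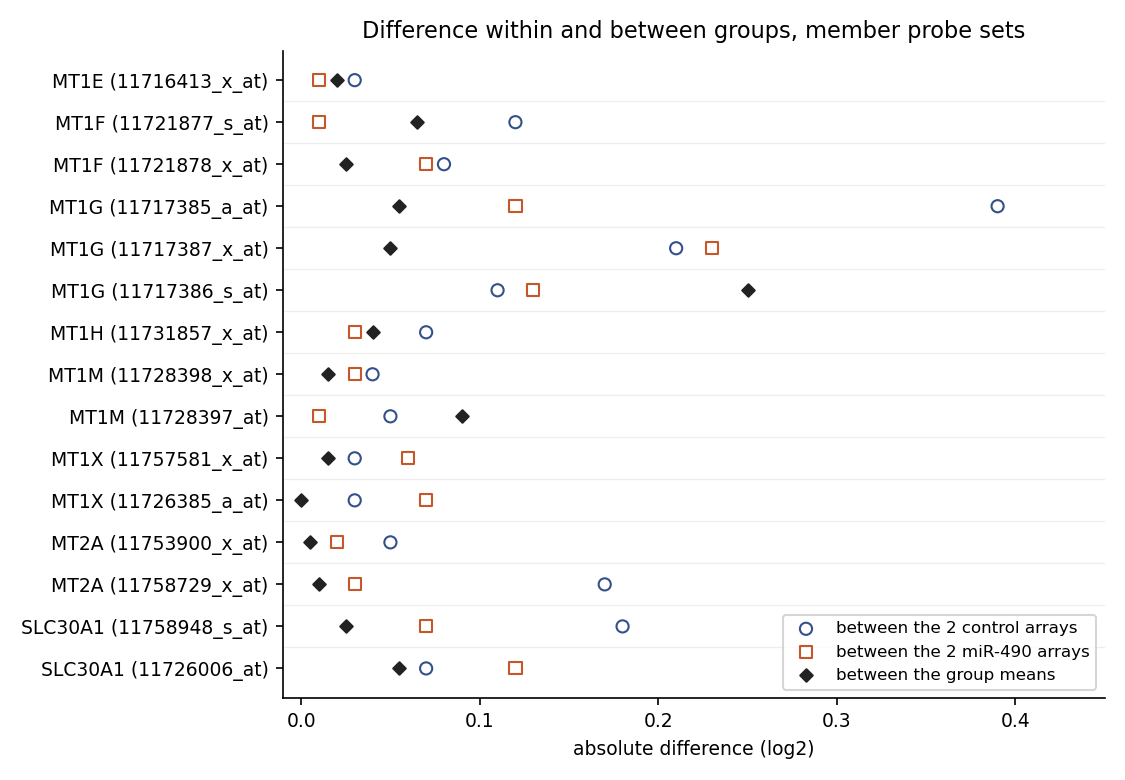
Absolute log2 difference between the 2 control arrays (blue circles), between the 2 miR-490 arrays (orange squares) and between the group means (black diamonds) for each member probe set. The diamond is to the right of both open symbols only for MT1G 11717386_s_at (0.25) and MT1M 11728397_at (0.09), and the control gap of MT1G 11717385_a_at, 0.39, is the widest.

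How far the sets can be assigned to single genes differs. Of the 15 sets, 8 end in _x_at and 3 in _s_at, the suffixes for sets whose probes may match other transcripts, and metallothionein transcripts are near-identical over much of their length. The other 4 end in _at or _a_at. For MT1E, MT1F, MT1H and MT2A all sets were of the first kinds, so their values may mix paralogs. The 3 metallothionein sets of the more specific kinds, from MT1G, MT1M and MT1X, had log2 fold changes of 0.055, -0.09 and 0.00.

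The 4 arrays gave the metallothionein genes almost no pattern by which other genes could be matched to them. With each gene's values minus their own mean, the 7 genes (1 set each) averaged -0.042 and 0.047 in controls and -0.011 and 0.006 with miR-490. The nearest of 10204 genes above the median level were HGH1, ENO2 and NUP62, with root mean square differences of 0.00101, 0.00355 and 0.00445 log2 units over 4 arrays. HGH1 read 7.94 and 8.03 in controls and 7.97 and 7.99 with miR-490. However, 2696 of those genes, 26.4%, were as near to the metallothionein mean as the metallothionein genes themselves were on average (0.0431), so these names describe closeness in a flat profile and no more.

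Other genes of zinc, copper and stress handling were read from the set with the highest mean per gene, and none passed over all probe sets (limma). In each of the lists below 0 genes had an adjusted p under 0.05, against 0.00% of all genes, while 4.77% of all genes were at an unadjusted p under 0.05. Of 10 other metallothionein genes and pseudogenes 6 were measured. Their median log2 fold change was -0.07, with 5 of the means lower, and MT1A, MT1L, MT1HL1 and MT1CP were not analysed here. MT4, known from stratified epithelium, had the smallest p of these and was dim, at 3.83 and 4.22 in controls and 3.83 and 3.78 with miR-490 (log2 fold change -0.22, limma adjusted p = 0.913). The pseudogene MT1JP was at 8.30 and 8.37 against 8.27 and 8.17, below both controls on both arrays. MT1B lay the other way, at 4.91 and 4.97 against 4.98 and 5.01. These were the 2 of 6 genes whose groups did not overlap, against 32.6% of all genes. MT3, the form best known from neurons, overlapped between groups at 7.80 and 7.79 against 7.81 and 7.73, and its other set had a log2 fold change of 0.15.

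MTF1, the zinc sensor itself, was at 8.06 ± 0.0849 in controls and at 8.12 ± 0.0354 with miR-490 (SD, n = 2), a log2 fold change of 0.055 (SE 0.0762; 95% interval -0.144 to 0.254). Its groups overlapped, and its 4 other sets had log2 fold changes from -0.17 to 0.085. The list of MTF1 with MTF2, SP1 and the coactivator EP300, read from 1 set per gene, had 4 of 4 higher means. EP300 was at 6.00 and 5.93 in controls and 6.26 and 6.19 with miR-490 (unadjusted p = 0.0162, limma adjusted p = 0.90). For MTF2 the set read had a log2 fold change of 0.095, but the 9 sets of that gene ranged from -0.365 to 0.125. Over all genes 9087 of 18132 had higher means. In 3 of the 4 both miR-490 arrays lay above both controls, MTF1 being the exception. Of all 18132 genes 2988 did so, and 32.6% did not overlap in either direction.

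Among 10 zinc exporters other than SLC30A1 the median log2 fold change was 0.048, with 6 higher and 4 lower means and no overlap in 4, against 32.6% of all genes. The 1 at an unadjusted p under 0.05, TMEM163, was dim (2.36 and 2.31 against 2.73 and 2.49; limma adjusted p = 0.90). SLC30A10, known mainly as a manganese exporter, was equally dim, at 2.63 and 2.65 against 2.69 and 2.74. SLC30A5, which loads zinc into the secretory pathway, was at 8.70 in both controls and at 8.60 and 8.63 with miR-490, a log2 fold change of -0.085.

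The 14 zinc importers had 7 higher and 7 lower means, a median of 0.003 and 0 at an unadjusted p under 0.05 (limma). The importers SLC39A14 and SLC39A8, which also carry other divalent metals, were a little lower in the set read for each. SLC39A14 was at 11.11 and 11.04 against 10.94 and 10.95 (log2 fold change -0.13, 95% interval -0.306 to 0.046). SLC39A8 was at 9.25 and 9.28 against 9.17 and 9.16 (-0.10, -0.268 to 0.068). In both the miR-490 arrays lay below both controls, and neither passed (limma adjusted p = 0.90 and 0.913). Over all their sets, log2 fold changes ran from -0.145 to 0.015 for SLC39A14 and from -0.22 to 0.205 for SLC39A8. SLC39A5, a dim set, lay the other way, at 3.38 and 3.36 against 3.51 and 3.45. SLC39A10, an importer of the plasma membrane, read 8.10 and 8.09 against 8.09 and 7.93. Non-overlap was seen in 5 of the 14 importers, where 32.6% of all genes did not overlap.

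Of 10 copper handling genes, with MTF1 counted again among them, 6 had lower means and the median log2 fold change was -0.01. The groups did not overlap in 0 of them, against 32.6% of all genes. SOD1, the copper and zinc superoxide dismutase, was at 12.24 and 12.34 against 12.32 and 12.27, and the copper importer SLC31A1 at 8.28 and 8.31 against 8.32 and 8.24. ATP7B, a copper exporter, had the lowest value, -0.27 (95% interval -0.855 to 0.315), with 1 dim control array at 3.93 and the other 3 between 3.28 and 3.39. The other ATP7B sets had log2 fold changes of -0.02 and 0.015.

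Genes of the oxidative and heavy metal response, several of which share inducers such as cadmium with metallothioneins, had mostly lower means with miR-490. The median log2 fold change was -0.08 over 13 genes, 10 of which had lower means, and in 9 both miR-490 arrays lay below both controls, where 16.1% of all genes did. HMOX1, heme oxygenase, was at 11.41 and 11.35 against 11.19 and 11.21 (log2 fold change -0.18, 95% interval -0.354 to -0.006; limma adjusted p = 0.90). SLC7A11, the cystine transporter, and HMOX1 were the 2 genes at an unadjusted p under 0.05. NFE2L2, the transcription factor of this response, was at 10.30 and 10.15 against 10.09 in both miR-490 arrays, and the glutathione synthesis enzyme GCLC at 7.67 and 7.71 against 7.61 and 7.54. These readings rest on 1 set per gene, and other sets differed in size or sign. The other HMOX1 sets had log2 fold changes of -0.145, with overlapping groups, and -0.175. For NFE2L2 the other set was at -0.015, with overlapping groups. Other SLC7A11 sets were at -0.18 and 0.03, and other GCLC sets ran from -0.22 to 0.15. The heat shock genes DNAJB1 and HSPA1B had log2 fold changes of 0.01 and 0.02, with overlapping groups. Neither HMOX1 nor any other gene of the list passed, and whether the list differs from the metallothioneins was not tested.

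Glucocorticoid-induced genes were listed because MT2A and MT1X also respond to that hormone, and the list of 10 counts the receptor NR3C1 as well. The median log2 fold change of the 10 genes was -0.007. Of the 10, 6 did not overlap between groups, 3 in each direction, where 32.6% of all genes did not overlap and 16.1% were lower. CEBPD, a transcription factor of inflammation as well, was at 8.19 and 8.32 against 7.89 and 7.94 (unadjusted p = 0.00826, limma adjusted p = 0.90). Other CEBPD sets had log2 fold changes from -0.235 to -0.03. PER1, a clock gene, was dim and lay the other way in its brightest set, at 4.58 and 4.86 against 5.17 and 5.07. The other PER1 sets, dimmer still, had log2 fold changes of 0.125 and 0.03. FKBP5, the most used readout of the receptor, was at 4.38 and 4.25 against 4.34 and 4.29 in its brightest set. The log2 fold change there was 0.00, with an interval of -0.204 to 0.204. In most of its other sets, all dimmer, both miR-490 arrays lay above both controls. Their log2 fold changes reached 0.275, while another set was at -0.05. NR3C1, the receptor, overlapped at 9.55 and 9.53 against 9.61 and 9.45.

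**Figure D5:**
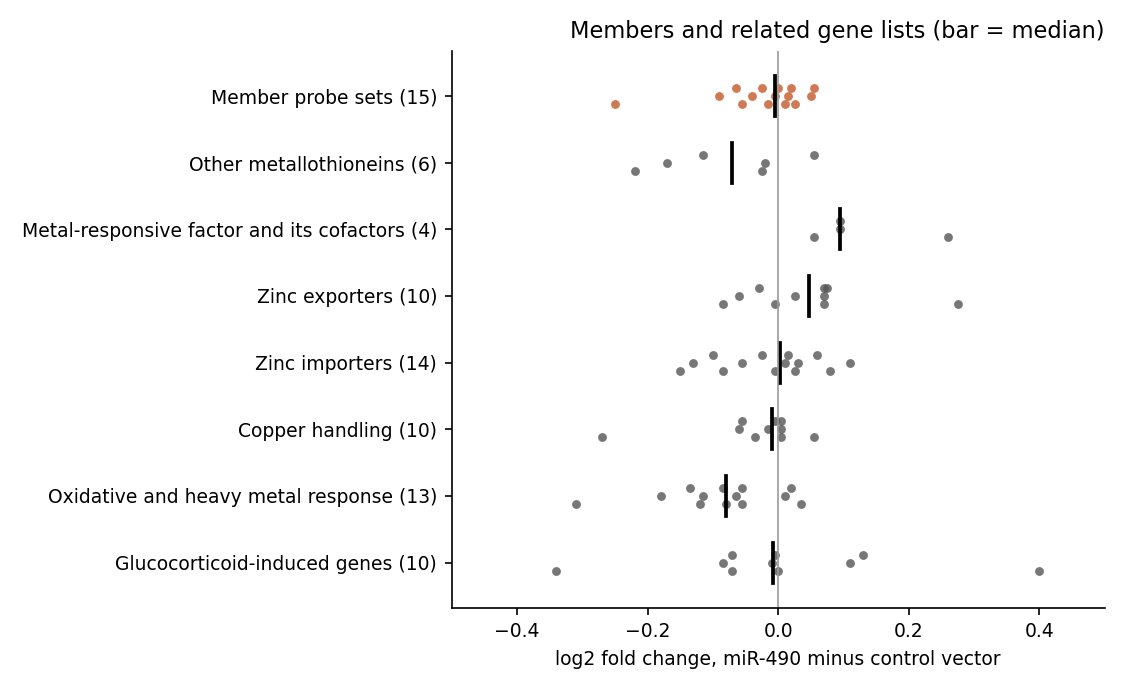
Log2 fold change, miR-490 minus control vector, of the 15 member probe sets (orange) and of the genes of each related list (grey, 1 set per gene, number measured in brackets), with the median as a bar. Points are spread vertically only to be seen. Member values lie between -0.25 and 0.055, with the median at -0.005, and the bar of the oxidative and heavy metal list is at -0.08.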

How the data were processed

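Biotin-labelled RNA was hybridised to Affymetrix PrimeView arrays, per the labels' protocols. The deposited table holds 1 log2 value per probe set and array, which the authors computed with RMA, as the submitters' processing notes say; the RMA version is not given in the sources used here. RMA equalises arrays, which hides any shift common to most transcripts. Values run from 1.72 to 14.24. Groups and replicate numbers come from the sample titles. Symbols come from the platform annotation, updated through Entrez IDs for 44961 of 44988 single-gene probe sets; 1832 sets had several symbols and 2473 none.

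All 49293 probe sets were fitted in R 4.3.3 with limma 3.58.1 (lmFit, eBayes, no trend, block or filter; 2.73 prior and 2 residual degrees of freedom). Tests were two-sided, adjusted by Benjamini-Hochberg, with a threshold of 0.05. Precision is limited by the number of arrays: the median SE of a log2 fold change was 0.0842. On 20 simulated data sets for the comparison of miR-490 with control vector over 49293 probe sets, 0% of sets changed by a log2 value of 0.25 or of 0.5 were recovered, 40.7% at 1 and 91.5% at 2, and 94.9% of 95% intervals held the true value.

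Members, lists and the rule for named genes were chosen with earlier results of these data known. All member probe sets are named. Of each related list, names were taken from the 4 members with the smallest unadjusted p, but not all 4 were always given. SGK1, DUSP1, COMMD1, ATOX1, SLC30A6, SLC39A3 and MT1DP were among them and are not described above. Also named, whatever their values, were MTF1, SLC39A14, SLC39A8, SLC39A10, SLC30A10, HMOX1 and FKBP5. MT3, SOD1, SLC31A1, DNAJB1, HSPA1B, NR3C1 and the cell type markers named were chosen after their values were seen. Alternatives were quantile normalisation, median centring, an intensity trend without and with a robust prior, sets above the median level, 1 set per gene, no _x_at or _s_at sets, each array left out and a replicate block. Figures were drawn with matplotlib 3.10.9. No genome build applies to the array values. Batches were not tested, since scan dates were not used here.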

Additional observations from a re-analysis of the deposited data

How the results depend on the processing

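The count of probe sets past the adjusted threshold was 0 in all 11 refits, as was the count of member sets, also among the 4 member sets not ending in _x_at or _s_at. The median log2 fold change of the metallothionein sets ranged from -0.055 (without control vector replicate 1) to 0.005 (without control vector replicate 2) when 1 array was left out (the single array left is then taken to vary as the other group does), and from -0.015 to 0.004 under the other refits. Of 156 refitted values of single member sets, 26 changed sign or reached 0, with 0 calls, and the largest absolute value was 0.315. The MT1G 11717386_s_at set had an unadjusted p under 0.05 in 3 refits, with quantile normalisation, median centring and the replicate block. Same-numbered arrays shared no visible deviation (r = -0.0844 across probe sets), and with the replicate block 0 probe sets passed and the median was -0.005. Changes of 0.5 on the log2 scale were not recovered in simulation, so a missing call says little about changes of that size, and intervals bear on them instead.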
